A study of Gallus gallus with 2 samples.

Results

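Chicken chromosome 2 carried 3008 of the 27188 CTCF peaks listed for red blood cells at 2 ages. They are all rows of both deposited peak lists that name chromosome 2: 421 of the 5830 peaks at 5 days (7.22% of that list) and 2587 of the 21358 peaks at 10 days (12.1%). The chromosome was chosen by its peak density, the lowest of the autosomes, so that density describes the choice and is no finding. Scores and the places of the peaks along the chromosome did not enter the choice. Spacing, close pairs, empty windows and stretches without a peak depend on peak density, so they are partly tied to the choice. How large a part of the 10 day peaks recurred in the 5 day list is tied to it through the peak counts, and all measures come from the same 2 libraries.

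CTCF is a protein with many zinc fingers, which recognise a long and well conserved DNA motif. It is known for insulators, which keep an enhancer from acting on a promoter beyond them, and for holding the bases of chromatin loops where cohesin stops. The first vertebrate insulator shown to need CTCF was the one beside the chicken beta globin genes, which are active in red cells. Chicken red cells keep their nucleus, so their chromatin can be recovered. Chromosome 2 is a macrochromosome, which in birds means a large chromosome with fewer genes per length than the microchromosomes.

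Chromatin was immunoprecipitated with an antibody to CTCF from *Gallus gallus* red blood cells, 5 day old in one library and 10 day old in the other, and the recovered DNA was sequenced. The labels name no genotype, strain or treatment that sets the libraries apart, and do not tell if age was counted before or after hatching and how many animals were used. Their growth and treatment fields describe mononuclear blood cells purified on a density gradient and stimulated with PMA and Io, and peak positions cannot check the cell type. There was 1 library per age, so nothing measures the spread between animals, and all intervals below are 95% intervals that cover counting error only.

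Every listed peak was 399 bp wide and carried a whole-number score that the authors deposited. The sources used here do not say what the score counts, so it was used to rank peaks within their own list. A percentile of 100 means the highest score of a list. On chromosome 2 the 5 day scores ran from 13 to 85 with a median of 22, and the 10 day scores from 22 to 222 with a median of 25. The whole lists had the same medians, 22 and 25, but reached 738 and 3381. On chromosome 2, 11.9% of the peaks at 5 days and 20.1% at 10 days had the lowest score of their list, against 11.3% and 19.3% of the whole lists.

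Chromosome 2 held 2.72 peaks per Mb at 5 days (2.47 to 2.99) and 16.7 per Mb at 10 days (16.1 to 17.4), over the 154.7 Mb up to its last peak. At 5 days the next autosomes were chromosome 3 with 3.25 and chromosome 1 with 3.26 peaks per Mb. At 10 days chromosome 1 was almost level, with 16.8 per Mb (16.2 to 17.3), and chromosome 3 held 18.4. The Z sex chromosome, which is no autosome, had densities of 3.74 and 13.3 per Mb, and the second of these was below that of chromosome 2. Chromosome 2 was therefore the sparsest of the autosomes spanning at least 1 Mb at both ages, but by a margin over chromosome 1 at 10 days that lay within counting error. With the 10 day list limited to its highest scoring peaks, as many as the 5 day list has, chromosome 2 held 3.51 per Mb at 10 days.

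The 10 day list was longer on chromosome 2 by 6.14 times (5.54 to 6.83). This was the highest such ratio among 28 chromosomes spanning at least 1 Mb, followed by 5.66 on chromosome 3 (5.07 to 6.34) and 5.14 on chromosome 1 (4.72 to 5.59). All other assigned chromosomes together gave 3.75 (3.63 to 3.87). The interval for chromosome 2 lay above that of the other assigned chromosomes and overlapped those of chromosomes 1 and 3. A low 5 day density feeds into this ratio, so it shares its source with the choice of the chromosome and is a description. It also rests on the length of the 10 day list: with both lists equally long over the genome, it was 1.29 (1.13 to 1.47). Read depth is unknown, and no input library is named in the sources used here, so the background part of either list is unknown too.

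Along the chromosome, 5 day peaks were spread less evenly than 10 day peaks. In the 30 complete bins of 5 Mb counted from base 0, with each peak placed by its midpoint, 5 day counts ran from 0 to 40 around a median of 13, and 10 day counts from 52 to 110 around a median of 87.5. The standard deviation was 63.2% of the mean at 5 days and 20.3% at 10 days. Smaller counts scatter more in themselves. The variance divided by the mean, which is about 1 for peaks placed at random, was 5.49 at 5 days and 3.47 at 10 days. At the same relative unevenness it rises with the mean count, which was 13.7 per bin at 5 days and 84.1 at 10 days. In the same bins, the standard deviation was 71.1% and 20.9% of the mean on chromosome 1 and 48.9% and 19.3% on chromosome 3.

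The bin richest in 5 day peaks lay from 30 to 35 Mb, with 40 peaks (28.6 to 54.5). The next were the first bin, from 0 to 5 Mb, with 30 (20.2 to 42.8), and the bin from 90 to 95 Mb with 24 (15.4 to 35.7). At 10 days the bin from 15 to 20 Mb held the most, 110 peaks (90.4 to 133), followed by the bin from 0 to 5 Mb with 107 and the one from 30 to 35 Mb with 106. The first bin and the bin from 30 to 35 Mb were thus among the 3 richest at both ages. The bin from 15 to 20 Mb held 20 peaks at 5 days, and the one from 90 to 95 Mb held 103 at 10 days.

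The poorest bins were mostly different at the 2 ages. From 85 to 90 Mb there was no 5 day peak at all, with an interval of 0 to 3.69 peaks, while the 10 day list held 87 there, close to its median. Each of the bins from 70 to 75 Mb and from 135 to 140 Mb held 2 peaks at 5 days, and 54 and 68 at 10 days. The poorest 10 day bins were those from 75 to 80 Mb with 52 peaks (38.8 to 68.2), from 130 to 135 Mb with 53 and from 70 to 75 Mb with 54. They held 6, 13 and 2 peaks at 5 days. Only the bin from 70 to 75 Mb was among the 3 poorest at both ages. On chromosome 1, 1 of 40 complete bins had no 5 day peak, and on chromosome 3 the lowest of 22 bins had 4.

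Across the 30 bins the counts of the ages had a Spearman correlation of 0.76, given as a description, since the bins share 2 libraries, base composition and mappability. The factor by which the 10 day list was longer ran from 2.65 to 34 over the 29 bins with a 5 day peak, around a median of 6.44. The factor of 34, from 135 to 140 Mb, rests on 2 peaks at 5 days (0.242 to 7.22), so it is poorly measured. A set of 10 day peaks about as large as the 5 day set was spread more evenly than the 5 day peaks. The 441 peaks that scored at least 30, which is the smallest set with no fewer peaks than the 5 day list has on this chromosome, ran from 4 to 32 per bin around a median of 13.5. Their standard deviation was 46.6% of the mean and their variance 3.11 times the mean, against 63.2% and 5.49 at 5 days. Their counts correlated with the 5 day counts at 0.85, but 188 of them (42.6%) were shared, so that the same sites count on both sides. Among 10 day peaks scoring at least 31, 46.9% were shared on chromosome 2 and 53.6% on the other assigned chromosomes. In the bin from 85 to 90 Mb 7 of the 87 peaks scored at least 30, and in the bin from 30 to 35 Mb 32 of 106 did. Unmatched peaks, which are free of such sites, correlated at 0.43 between the ages, and at 0.35 when only 10 day peaks scoring at least 30 were taken.

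**Figure D1:**
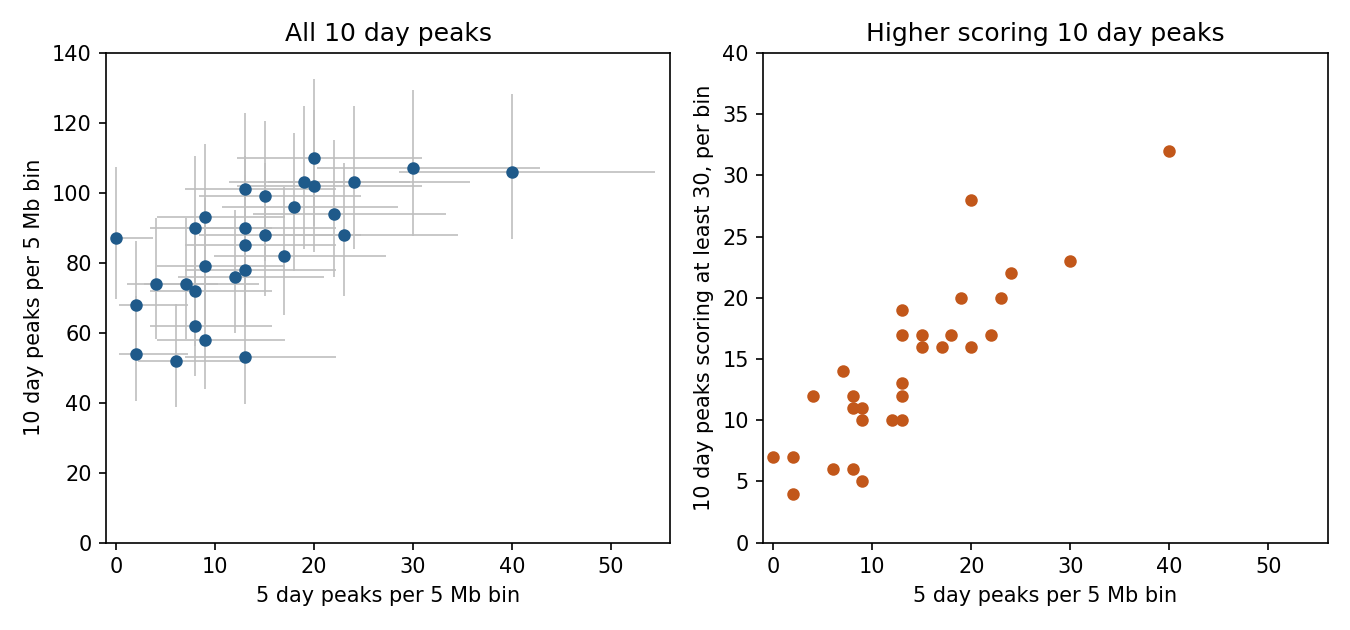
Each point is 1 of 30 complete 5 Mb bins of chromosome 2, with the number of 5 day peaks on the x axis and of 10 day peaks on the y axis, all of them on the left (bars are exact Poisson 95% intervals) and those scoring at least 30 on the right. On the left, 5 day counts run from 0 to 40 while 10 day counts stay between 52 and 110; on the right, the 10 day counts fall to between 4 and 32, and 42.6% of these peaks are shared with the 5 day list.

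The first 75 Mb held more peaks than the next 75 Mb at both ages. At 5 days they held 258 and 154 peaks, a ratio of 1.68 (1.37 to 2.06). At 10 days they held 1355 and 1169, a ratio of 1.16 (1.07 to 1.25). The intervals of the ages did not overlap, but the lists differed greatly in length. These intervals also take peaks as placed independently. The variance of the 5 Mb bin counts was 5.49 times the mean at 5 days and 3.47 times at 10 days, so the intervals can be too narrow. The split was not repeated with a 10 day set of like size, and the difference between the ages was not tested. Of the 30 chromosome 2 peaks in the top 10% of the 5 day list, 23 lay in the first 75 Mb (76.7%, 57.7 to 90.1), against 61.3% of all 5 day peaks of the chromosome. At 10 days 90 of 154 did (58.4%, 50.2 to 66.3), against 52.4% of all.

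Long stretches without a peak took up much of the chromosome at 5 days and little of it at 10 days. There were 42 stretches of at least 1 Mb without a 5 day peak, 75.7 Mb in all or 48.9% of the span. Chromosome 1 had 61 such stretches that made up 53.0% of its span, and chromosome 3 had 28 with 45.9%. At 10 days chromosomes 1, 2 and 3 each had 1 stretch of at least 1 Mb. With the 10 day list limited to the length of the 5 day list, its longest stretch was 2.51 Mb. Stretches of at least 200 kb without a 10 day peak numbered 118 and covered 21.7% of chromosome 2.

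The longest stretch without a 5 day peak ran over 6.03 Mb, from 84095318 to 90125451. It was bordered by peaks with scores of 17 and 18, low in their list. The 10 day list had 100 peaks inside it, 16.6 per Mb (13.5 to 20.2), close to the 16.7 per Mb of the whole chromosome. Their scores ran from 22 to 48 with a median of 24.

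The second stretch, of 4.58 Mb from 70571680 to 75149150, held 51 peaks at 10 days (11.1 per Mb, 8.30 to 14.6) with scores up to 40. It ended at a 5 day peak with a score of 50, at 75149151 to 75149549, which the second highest 10 day peak of the chromosome overlapped. The third stretch, of 4.23 Mb from 94971689 to 99199181, held 65 peaks at 10 days (15.4 per Mb, 11.9 to 19.6) with scores up to 38. In each of these stretches the median 10 day score was 24.

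Over all 42 stretches, 10 day peaks stood at 14.8 per Mb (13.9 to 15.7). None of these 1118 peaks can be shared, because the stretches hold no 5 day peak. The like value outside the stretches is therefore that of unmatched 10 day peaks, which was 15.5 per Mb (14.7 to 16.4). The intervals overlapped, and the median score was 24 in both sets. A score of at least 30 was held by 9.30% of the peaks inside and by 12.1% of the unmatched peaks outside.

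The longest stretch without a 10 day peak, of 1.57 Mb from 52278756 to 53847816, had no 5 day peak either. It lay inside the bin from 50 to 55 Mb, which held 58 peaks at 10 days. Chromosomes 1 and 3 had longest 10 day stretches of much the same length, 1.63 and 1.52 Mb. The next on chromosome 2 ran over 0.655 Mb from 100498377 to 101153083 and held 1 peak at 5 days, with the lowest score of 13. The third ran over 0.580 Mb from 70992511 to 71572705, inside the second 5 day stretch, and held no 5 day peak. Assembly gaps and unmappable sequence were not analysed here, so their part in these stretches was not tested.

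Neighbouring peak starts were a median of 142 kb apart at 5 days (interquartile range 45.0 to 434) and 36.7 kb apart at 10 days (14.9 to 80.6). The order of the ages turned with list length: with the lists equally long, the 10 day list had a median spacing of 170 kb on chromosome 2. The median was 0.39 of the mean distance at 5 days and 0.61 at 10 days. Close pairs were few at 5 days. Of 420 distances, 6 were under 1 kb (1.43%, 0.526 to 3.08) and 37 under 10 kb (8.81%, 6.28 to 11.9). On chromosome 1 the shares were 5.04% (3.49 to 7.00) and 17.4% (14.6 to 20.5), above those of chromosome 2 with intervals that did not overlap. On chromosome 3 they were 2.45% (1.12 to 4.59) and 10.6% (7.65 to 14.2), with intervals that did. Chromosomes 1 and 3 were denser in 5 day peaks than chromosome 2, so these contrasts are partly tied to its choice. At 10 days, 64 of 2586 distances on chromosome 2 were under 1 kb (2.47%, 1.91 to 3.15), against 3.12% on chromosome 1 (2.56 to 3.76) and 2.59% on chromosome 3 (1.95 to 3.36).

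**Figure D2:**
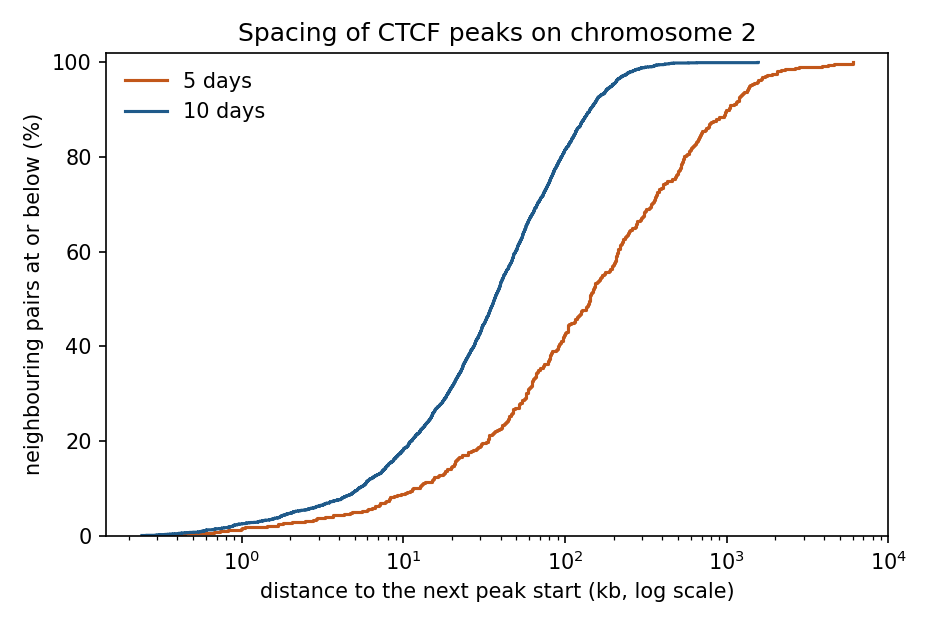
The lines give the cumulative share of neighbouring peak pairs on chromosome 2 (y axis, %) by the distance between their starts (x axis, kb, log scale), for 420 distances at 5 days and 2586 at 10 days. The 5 day line lies to the right, with a median of 142 kb against 36.7 kb for the longer 10 day list (170 kb when that list is limited to the length of the 5 day list), and reaches 6031 kb where the 10 day line ends at 1569 kb.

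Of the 1548 windows of 100 kb, 79.6% held no peak at 5 days and 23.1% none at 10 days. The fullest window was the same at both ages, from 31000001 to 31100000, within the richest 5 day bin. The 5 day list had 6 peaks there, scoring 13 to 63, and the 10 day list 11, scoring 23 to 84, and 6 of each were shared. The next 5 day windows lay from 92000001 to 92100000, with 5 peaks of which 1 was shared and a single 10 day peak, and at the start of the chromosome, from 1 to 100000, where 4 peaks were listed at 5 days and 3 at 10 days.

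The next 10 day windows held low scores. From 141400001 to 141500000 there were 9 peaks with scores of 22 to 30, and from 200001 to 300000 there were 8 with scores of 22 to 25. None of these peaks was shared, and few 5 day peaks lay there. A window from 60600001 to 60700000 also held 8 peaks at 10 days, ordered after the last by position. There 3 of the 8 were shared and the scores reached 71. The 3 fullest 10 day windows thus differed. The first mixed low and high scores at both ages, with medians of 26.5 at 5 days and 29 at 10 days. The next pair held low 10 day scores with 0 and 1 peak at 5 days, the latter scoring 14.

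The strongest peaks of the genome-wide lists were rarely on chromosome 2. Its shares in the top 1%, 5% and 10% of the 10 day list fell below those of the other assigned chromosomes beyond counting error. At 5 days the intervals of these shares overlapped. No 5 day peak on chromosome 2 was in the top 1% of its list by score (1.01% of all 5 day peaks with ties kept). This count of 0 of 421 allows a share of up to 0.713% (3 counts of 421), and the other assigned chromosomes had 0.575%. Chromosome 3 had 1 of 369 peaks there (0.271%). The highest 5 day peak of chromosome 2 was at rank 168, below 101 peaks of other assigned chromosomes. In the top 5% of the list were 11 chromosome 2 peaks (2.61%, 1.31 to 4.63), where the list as a whole has 5.15%. The other assigned chromosomes had 4.41% (3.84 to 5.03), chromosome 3 had 2.44% and chromosome 1 had 6.55% (4.78 to 8.73). The share of the whole list includes unplaced and other sequence, which had 11.5%. In the top 10% were 30 of the 421 chromosome 2 peaks (7.13%, 4.86 to 10.0), against 10.3% of the list and 9.56% (8.73 to 10.4) on the other assigned chromosomes.

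At 10 days, 4 of the 2587 peaks were in the top 1% of the list (0.155%, 0.0421 to 0.395), against 1.01% of the list and 0.584% (0.477 to 0.708) on the other assigned chromosomes. In the top 5% were 62 (2.40%, 1.84 to 3.06), against 5.11% of the list, and in the top 10% 154 (5.95%, 5.07 to 6.93), against 10% of the list and 9.14% (8.71 to 9.57) on the other assigned chromosomes. These 10 day intervals lay apart from those of the other assigned chromosomes. Chromosome 3 was close to chromosome 2, with 6.78% of its peaks in the top 10% at 5 days and 5.94% at 10 days. In the top 1% and top 5% of the 10 day list it had 0.191% (0.0522 to 0.490) and 2.63% (1.99 to 3.41). Chromosome 1 had 7.42% of its 10 day peaks in the top 10% (6.56 to 8.36), but 1.04% in the top 1%. Low 10 day shares in the top 1%, 5% and 10% were thus not particular to chromosome 2. The median percentile was 49.1 at 5 days and 51.0 at 10 days on chromosome 2 and the same on the other assigned chromosomes. Tied scores make this a coarse measure, and the 10 day value had an interval of 40.7 to 51.0. The quartiles at 5 days were 28.6 and 70.5 on chromosome 2 and 22.6 and 74.2 on the others. At 10 days they were 27.0 and 70.6, against 27.0 and 74.6.

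Counted over assigned chromosomes only, chromosome 2 held 8.22% of all 5 day peaks (7.48 to 9.01) and 12.8% of all 10 day peaks (12.3 to 13.3). Its share fell towards the top of the lists. Among the highest 10% it was 5.79% at 5 days (3.97 to 8.12) and 9.30% at 10 days (8.11 to 10.6). Among the highest 1% it was 0 of 52 peaks at 5 days (0 to 6.85%) and 8 of 207 at 10 days (3.86%, 1.68 to 7.47). At 5 days the interval for the highest 1% lay below that for all peaks, and the interval for the highest 10% overlapped it. The share of chromosome 1 at 5 days went the other way, from 12.8% of all peaks to 14.8% of the highest 10% and 30.8% of the highest 1%. At 10 days it went from 16.7% of all peaks down to 14.1% of the highest 10%, and was 24.2% of the highest 1%.

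**Figure D3:**
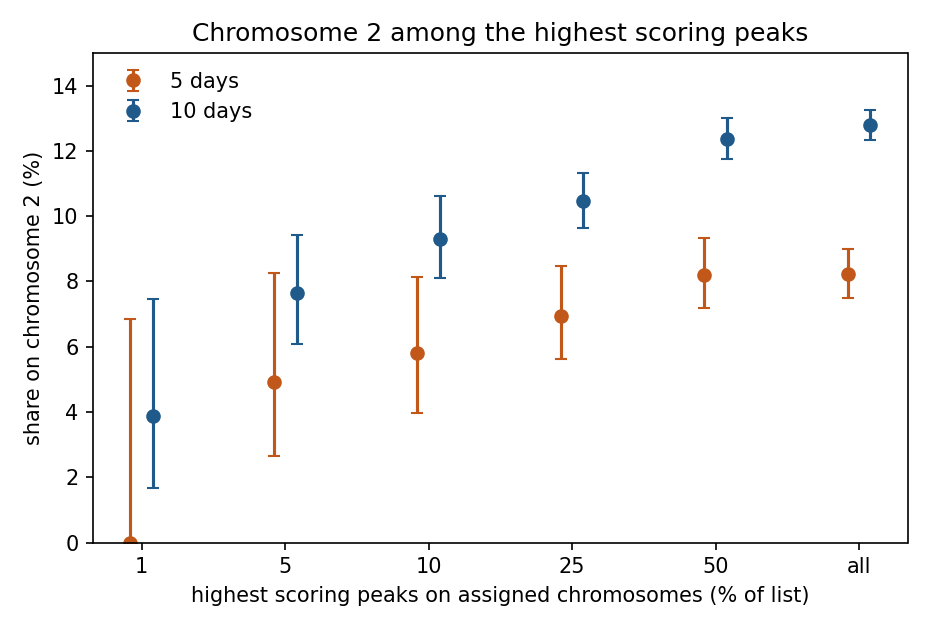
Points give the share of peaks on assigned chromosomes that lay on chromosome 2 (y axis, %), among the highest scoring 1, 5, 10, 25 and 50% of each list and the whole list (x axis), with exact Clopper-Pearson 95% intervals. At 10 days the share rises from 3.86% of the highest 1% to 12.8% of all peaks, and at 5 days from 0% to 8.22%.

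The comparison of the ages asks which peaks are listed at both. Overlap of 1 bp or more with any peak of the other age counted as shared, and all remaining peaks as unmatched. On chromosome 2, 238 of the 421 peaks at 5 days were shared, 56.5% (51.6 to 61.3), where 57.6% of the whole 5 day list was. The other assigned chromosomes had 55.9%, and the difference of 0.65 percentage points (-4.33 to 5.52) lay within counting error. Of the 2587 peaks at 10 days 241 were shared, 9.32% (8.22 to 10.5), where 15.8% of the whole 10 day list was. The other assigned chromosomes had 14.9% (14.4 to 15.5). Chromosome 3 had 9.96% (8.71 to 11.3) and chromosome 1 11.5% (10.4 to 12.6). With nearly the same positions counted on both sides, the low 10 day share and the high ratio of list lengths are the same fact by arithmetic, and both are tied to the density that chose the chromosome. The 10 day share is therefore a description. With the 10 day list limited to the length of the 5 day list it was 35.2% on chromosome 2. The difference from the other assigned chromosomes was then -8.31 percentage points (-12.5 to -3.97), against -5.61 (-6.79 to -4.32) with the full list.

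The shares by score describe the same peaks further. Each list was divided by score percentile into 5 parts, with tied scores kept together, so the parts differ in size. In the highest part of the 10 day list 46.9% of the chromosome 2 peaks were shared (41.8 to 52.1), and 53.6% on the other assigned chromosomes (52.0 to 55.3). In the next it was 5.70% (3.76 to 8.24) and 10.8% (9.67 to 11.9), and in the third 3.01% (1.94 to 4.45) and 5.08% (4.49 to 5.73). In the lowest parts the shares were 1.61% and 1.34% on chromosome 2, with 7 shared peaks each, and 3.09% and 2.82% elsewhere. The differences there, -1.49 percentage points (-2.58 to 0.28) and -1.48 (-2.40 to 0.01), had intervals that included 0. Scores still varied within the highest part, which ran from 31 to 3381 in the list and up to 222 on chromosome 2.

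At 5 days no part of the list had an interval of the difference that left out 0. In the highest part 68 of 72 peaks were shared (94.4%, 86.4 to 98.5), against 92.0% on the other assigned chromosomes. The following parts had 79.5%, 60.9% and 33.0%, against 77.5%, 56.5% and 33.0%. In the lowest part 8 of 68 were shared, 11.8% (5.22 to 21.9), against 21.3%, a difference of -9.55 percentage points with an interval of -15.9 to 0.54 that included 0.

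**Figure D4:**
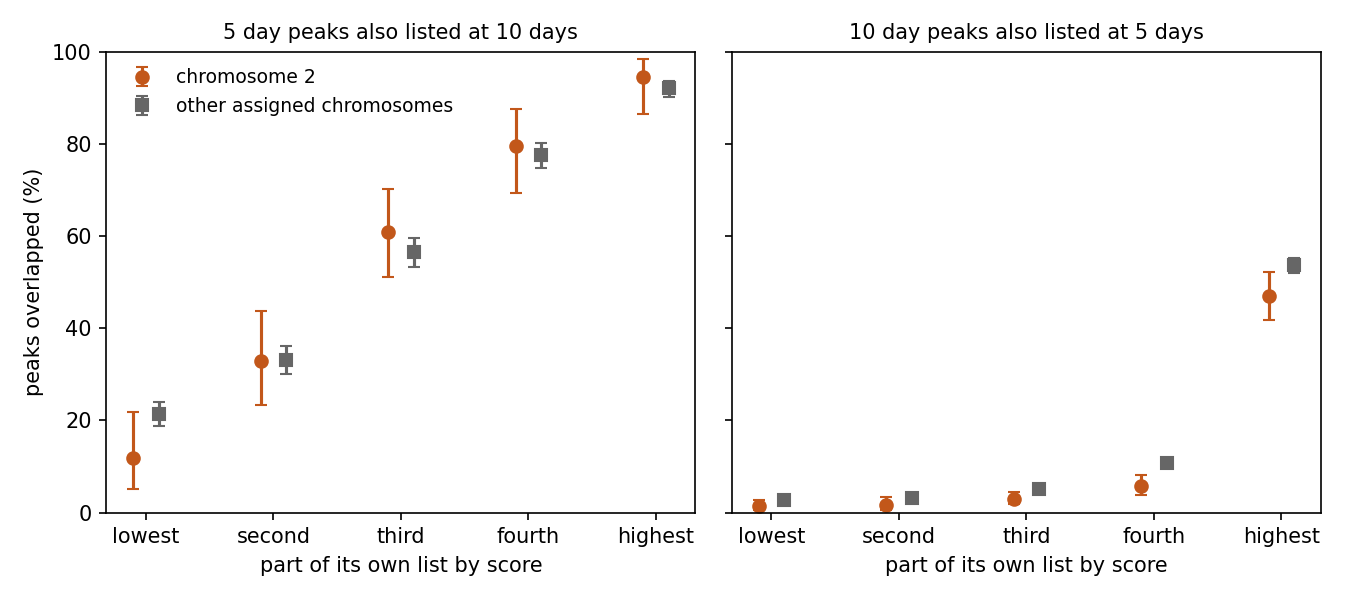
Points give the share of peaks overlapped by a peak of the other age (y axis, %) in 5 parts of the list by score (x axis), for chromosome 2 (circles) and the other assigned chromosomes (squares), with exact Clopper-Pearson 95% intervals. At 5 days both sets climb together to 94.4% and 92.0%, while at 10 days chromosome 2 is below the rest in each part, with 46.9% against 53.6% in the highest. In the lowest and second parts at 10 days the interval of the difference includes 0.

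Shared peaks were the higher scoring ones of chromosome 2. The 238 shared peaks at 5 days scored a median of 30.5 (quartiles 21 and 45), and the 183 unmatched ones scored 16 (14 and 21). The 241 shared peaks at 10 days scored a median of 41 (30 and 61), and the 2346 unmatched ones scored 24 (23 and 27). The ranges overlapped widely, since shared peaks reached down to the lowest score of each list, 13 and 22.

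The positions of shared peaks lay close together. In 237 pairs each peak was the nearest to the other, and the median offset of their starts was 36 bp (quartiles 17 and 63 bp), with 158 pairs within 50 bp and 1 at the same position. The overlap rule limits this offset to below the peak width of 399 bp. Scores of the pairs had a Spearman correlation of 0.45 on chromosome 2, 0.61 over 381 pairs on chromosome 1 and 0.48 over 206 pairs on chromosome 3. Peaks of the same libraries are not replicates, so these are descriptions.

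The 5 highest scoring shared peaks of the 5 day list lay within the first 35 Mb. The highest, at 414742 to 415140, scored 85, and the 10 day peak over it scored 94. The next, at 3951603 to 3952001, scored 84 and had a 10 day score of 85. The third, at 22454317 to 22454715, scored 83 and had a 10 day score of 48. The last pair, at 31877580 to 31877978 and 17347318 to 17347716, scored 79 and 78 with 10 day scores of 101 and 106. All of these 10 day scores were below the 5 highest on the chromosome at that age. The third peak thus stood among the highest at 5 days with a 10 day score little above the median of 41 of shared peaks.

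The 5 highest scoring shared peaks of the 10 day list were other sites. The highest was at 82631373 to 82631771 with a score of 222, over a 5 day peak with a score of 76. It was followed by 75149152 to 75149550 (score 185, and 50 at 5 days), 32022663 to 32023061 (score 180, and 58), 134335629 to 134336027 (score 153, and 38) and 78181664 to 78182062 (score 117, and 44). All but the third lay in bins with below the median number of 10 day peaks: 52 from 75 to 80 Mb, 53 from 130 to 135 Mb and 76 from 80 to 85 Mb. The poorest pair of 10 day bins on the chromosome thus held 3 of its 5 highest 10 day scores. These were single peaks, and the bins as a whole did not score high. Their median 10 day scores were 24 and 25, against 25 on the chromosome. A score of at least 30 was held by 6 of the 52 peaks and 10 of the 53, against 441 of 2587 on the chromosome. Over the 30 complete bins, the 10 day count and the median 10 day percentile had a Spearman correlation of 0.32. No change of binding can be read from the paired scores of the named peaks, since no scale common to both ages is given.

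Some unmatched peaks were far from any peak of the other age. The highest unmatched 5 day peak was at 6271284 to 6271682, with a score of 66 and the nearest 10 day peak start 29.8 kb away. The next was near the start of the chromosome at 18994 to 19392 (score 59), with a 10 day peak starting 1.67 kb away. A peak at 4285833 to 4286231 with a score of 45 had its nearest 10 day peak 65.4 kb away. Those at 133757448 to 133757846, scoring 43, and at 78301221 to 78301619, scoring 39, had theirs 91.5 and 120 kb away. The highest of these scores was at percentile 93.4 of the 5 day list. In all, 8 of the 183 unmatched 5 day peaks (4.37%) had a 10 day peak starting within 1 kb, and the median distance was 20.6 kb.

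Among unmatched 10 day peaks the scores ended at 54. The highest was at 106995669 to 106996067 (score 54), with the nearest 5 day peak start 275 kb away. The next, at 23680217 to 23680615, scored 53 and lay 168 kb from a 5 day peak. Those at 141291893 to 141292291, scoring 52, and at 119052745 to 119053143, scoring 49, lay 366 and 209 kb from one. The last, at 60643449 to 60643847, scored 48 and had a 5 day peak start 0.967 kb away, more than the peak width of 399 bp. That 5 day peak was shared with another 10 day peak, which scored 41. Of the 2346 unmatched 10 day peaks, 20 (0.853%) had a 5 day peak starting within 1 kb, and the median distance to a 5 day peak was 176 kb, as the wide spacing of the 5 day list allows. Which genes lie at these positions was not analysed here.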

How the data were processed

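The authors deposited 1 headerless peak list per library, with 6 columns: sequence name, start, end, a placeholder, a whole-number score and a constant strand sign. The score in the deposited lists has no stated scale. The sources used here name no aligner, peak caller, threshold, control library or genome build, and depth is unknown. Positions are printed with the first base counted as 1. A gene table at hand is on another assembly, so genes, sequences and motifs were not analysed here.

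Groups were taken from the age label. The members and lists were chosen with earlier results of these data known. Peaks were named by rule: the 5 highest scoring shared and unmatched peaks of each list, and the 3 richest and poorest bins, longest empty stretches and fullest windows at each age, with ties ordered by position. The limits of 1 Mb and 200 kb for stretches and the score of 30 were set after values were seen. Densities use the length up to the last peak at either age. Assigned chromosomes are the numbered ones and Z.

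Intervals are exact Poisson (counts and densities), Clopper-Pearson (shares), conditional binomial (ratios) and Newcombe (differences of shares). There is no test between ages, since each has 1 library. Functions were tested on simulated data. Alternatives changed the overlap rule, score limit, list length, bins and spanned length. Tables were handled in pandas 2.3.3 under Python 3.11.15, intervals came from scipy 1.17.1 with numpy 2.4.6, and plots from matplotlib 3.10.9.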

Additional observations from a re-analysis of the deposited data

How the results depend on the processing

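Of 57 alternatives 33 counted as unchanged and 24 moved. Unchanged values stayed within the counting interval of the value as reported, or within 1.5 times for stretch lengths. A difference counted as unchanged if its interval still included 0, or still left it out. The 10 day share was tied to the choice of the chromosome, so its difference from the other chromosomes supports nothing further. The 5 day difference in share kept an interval that included 0 under all 4 overlap, score and length alternatives. With the upper 50% of the scores the differences were -0.65 percentage points at 5 days and -6.55 at 10 days. With the 10 day list as long as the 5 day list they were 1.83 and -8.31. Overlap rules moved no share. Densities, spacings and bin extremes moved with fewer peaks or wider bins by construction. Where peaks were fewer, the cut of tied scores given below also entered. For the ratio, percentiles and shares the cause was not tested. With the upper 50% of the scores, densities were 1.33 and 7.33 per Mb at 5 and 10 days, the ratio 5.50, median spacings 261 and 84.5 kb, shared percentages 74.8 and 13.5, the highest 5 day bin 5 per Mb, the highest and lowest 10 day bins 12.6 and 3 per Mb, and the 5 day median percentile 43.7. With the 10 day list as long as the 5 day list, its density was 3.51 per Mb, the ratio 1.29, the highest and lowest bins 7 and 1.2 per Mb, the longest stretch 2.51 Mb, the median spacing 170 kb (above the 142 kb at 5 days), the shared percentages 45.4 at 5 and 35.2 at 10 days, and 4.79% of the chromosome 2 peaks were in the top 10%. Bins of 10 Mb gave a highest and lowest 5 day density of 4.9 and 0.8 per Mb. Ranked among assigned chromosomes only, the 10 day median percentile was 52.2 and 7.69% were in the top 10%. In the lists with fewer peaks, tied scores at the limit were cut by position, which favours low coordinates. This can lower the counts of a long chromosome, and its part in the ratios of 5.50 and 1.29 was not tested. With ties kept, the highest 50% of peaks on assigned chromosomes held 216 chromosome 2 peaks at 5 days (scores of at least 22). At 10 days they held 1309 (at least 25). The highest 25% at 10 days (at least 29) held 543, against 421 chromosome 2 peaks in the whole 5 day list. No paired analysis was possible because there is a single library at each age, which also means that leaving one out could not be tried. Since depth is unknown, a peak missing from a list is not shown to be an empty site.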
